A study of Gallus gallus with 40 samples.

Results

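The transcripts of the proteasome subunits were followed in chicken breast muscle across 40 arrays of broilers with white striping (WS) or wooden breast (WB), the myopathies that mark the fillet with white lines or harden it. Members were the probes whose RefSeq record carries a symbol starting PSMA, PSMB, PSMC, PSMD or PSME, a rule that reads names and no expression value, though the gene group itself was proposed with earlier results of these data known. The rule found 37 probes for 34 genes among 56401 probes, of which 25956 could be named, for 13912 genes. PSMC3IP, with 2 of those probes, shares the letters but encodes a protein of meiotic recombination and not a subunit, so it was set aside. The remaining 35 probes represented 33 subunit genes, and PSMB6, PSMC4 and PSMD8 were not among the names matched here. All 35 probes were above background on all 40 arrays, with 0 saturated spots. PSMA4 and PSME4 had 2 probes each, and the brighter one stood for the gene.

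The proteasome is the barrel-shaped protease that degrades proteins tagged with ubiquitin. Its core particle stacks rings of alpha subunits (PSMA) as gates and rings of beta subunits (PSMB) that hold the proteolytic sites, and its regulatory particle unfolds substrates with a ring of ATPases (PSMC) and binds, deubiquitinates and positions them with non-ATPase subunits (PSMD). Activators of the PSME group can cap the core in place of the regulatory particle, and in skeletal muscle the ubiquitin and proteasome system removes contractile proteins during wasting and remodelling. Among the 33 genes, 13 belonged to the core (7 alpha and 6 beta) and 20 to the regulatory group. The regulatory genes were 5 ATPases, 3 non-ATPase subunits of the base, 7 lid subunits, 3 assembly chaperones of the base and 2 activators. The chaperones (PSMD5, PSMD9 and PSMD10) assist assembly, and they are counted among the subunit genes here because the rule goes by symbol.

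All samples were pectoralis major of commercial Ross broilers raised at 5 farms, each labelled as a bird of its own, so the p-values here measure the spread between birds. The striping set held 4 arrays titled non-WS, 7 of mild, 6 of moderate and 4 of severe WS. Their labels gave no age, the study's methods describe males of about 7 weeks, and another label field of these arrays places the same grade under WB, so the titles were followed. The study's text describes no birds without WS and another number of mild birds, so the 4 non-WS and 7 mild arrays rest on their labels. The wooden breast set held non-WB birds at 49 d with mild WS (3) or moderate WS (4), non-WB birds at 45 d or under with severe WS (4), severe WB birds at 49 d with mild WS (2) or moderate WS (3), and severe WB birds at 45 d or under with mild WS (3). At 45 d or under, WB and the grade of striping therefore cannot be told apart.

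By their barcodes the 40 arrays lay on 5 slides of 8 arrays, while the labels speak of 8 slides, and the slide term in the fits follows the barcodes. With that term, mild replicate 7, the only striping array on its slide, does not enter the differences between striping grades. The median spot signal per array ran from 76.4 to 298, with 66.9 to 78.6% of spots well above background. In the striping set the non-WS (76.4 to 117) and severe arrays (78.9 to 120) lay on one row of the slides and were dimmer than most mild (110 to 229) and moderate arrays (106 to 259) on the other row. Grade, brightness and row cannot be told apart in comparisons across the rows. In the wooden breast set every WB array lay on row 1, while the non-WB arrays lay on both rows. WB and row can therefore be told apart only in part. Precision is limited by how many arrays there are. Of 8 fast muscle fibre markers, 2 were matched (TNNI2 and TNNT3), both bright on every array. One array stood apart: in replicate 3 of severe WB with mild WS at 45 d or under, 6 fibroblast and matrix markers summed to 211178, against 310649 to 559771 on the other 7 WB arrays and 194885 to 310156 on the 11 non-WB arrays. Its macrophage marker sum was 129923, against 215097 to 355464 on the other WB arrays and 136185 to 215172 on the non-WB arrays. The calls of members in the WB results it enters are given with and without it.

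**Figure D1:**
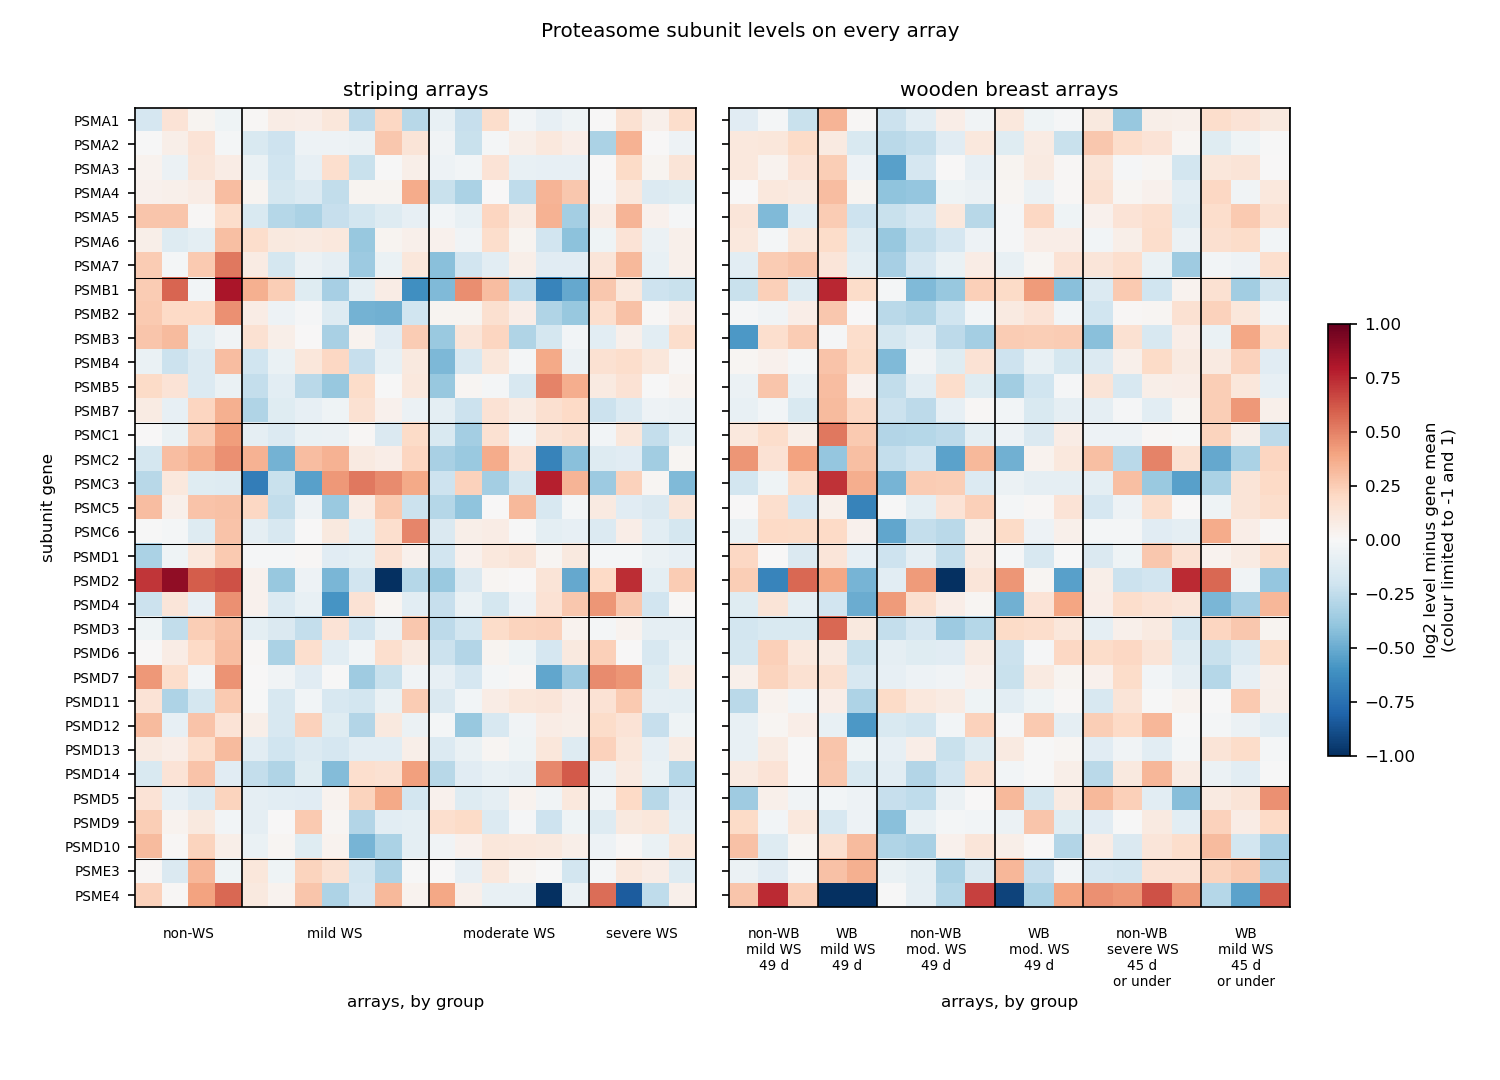
Levels of the 33 subunit genes (rows, grouped by position in the particle) on the 21 striping arrays and the 19 wooden breast arrays (columns, grouped by label), as log2 level minus the gene's mean over the set, with colours limited to -1 and 1. Most cells are pale, PSMD2 is high on the 4 non-WS arrays, and PSME4 is low on both severe WB arrays with mild WS at 49 d.

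The spread of the subunit transcripts between birds of a group was smaller than that of most probes. The median residual SD of the 33 genes was 0.158 on the log2 scale in the striping set, against 0.288 over all 32629 probes tested, and 29 of 33 genes lay below that median. In the wooden breast set it was 0.150 against 0.309 over 34517 probes, with 30 of 33 genes below. Bright probes vary less, and 3895 and 3953 probes in the interquartile range of the members' brightness had medians of 0.236 and 0.263. PSME4, the large activator that caps the core without ATPases, was among the members that varied most, with 0.397 in the striping set and 0.412 in the wooden breast set. PSMD2, the base subunit that docks ubiquitin shuttle factors, reached 0.541 in the wooden breast set, where its signal ran from 1845 to 5500 at 49 d without WB.

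The grades of striping were compared first, to ask whether subunit transcripts follow severity. No subunit gene passed the test in any of the 3 comparisons between grades, where a call needed a limma adjusted p of at most 0.05 and a fold change (FC) of at least 1.2, and differences were small. From mild to moderate WS (C1), 0 of 33 genes were called, with 0% of all probes called, and 3 genes had an unadjusted limma p at or below 0.05 where 8.59% of probes did. From moderate to severe (C2) 0 were called, again with 0% of probes, and 1 gene had such an unadjusted p against 8.16% of probes. From mild to severe (C3) 0 were called, with 0% of probes, and 4 genes had such a p, all higher in severe WS, against 9.41% of probes. The t-test described in the methods, run on the same values, called 0 members in each after adjustment, with 1, 1 and 4 members at the unadjusted level. The study itself reported differentially expressed genes in all 3 comparisons. It used another number of mild birds and a batch correction that was not run here. Of the 33 genes, 19, 21 and 24 had a log2FC above 0 in C1, C2 and C3, and the medians were 0.035, 0.059 and 0.074 against -0.016, 0.0013 and -0.014 over all probes. In C3 the 13 core genes had a median log2FC of 0.13 and the 20 regulatory genes 0.062, and 7 of 7 lid genes were above 0 with a median of 0.17. That count of lid genes needs slide in the fit, since PSMD14 of the lid was -0.029 without it. Severe arrays lay on another row than mild and moderate arrays, so grade and row cannot be told apart in C2 and C3. The regulatory median ran from 0.012 to 0.13 as single arrays were left out. In the same comparison 5 of 5 regenerating fibre and satellite cell markers were above 0 with a median of 0.72. Of the erythrocyte markers 4 of 5 were above 0 with a median of 0.36. Other lists went the other way, with 1 of 4 endothelial markers above 0 (median -0.30) and 2 of 5 adipocyte markers (median -0.29). None of these markers was called, and their part in the subunit values was not tested.

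PSMB5, which carries the chymotrypsin-like site of the core, had the smallest p of the members in C3. Its signal was 10708, 11123, 10031 and 10313 in the 4 severe arrays, against a lowest, median and highest of 7752, 9383 and 11430 in the mild arrays. The severe values lay inside the upper part of the mild range, and the group means were 10544 in severe and 9485 in mild WS. With slide in the fit the log2FC was 0.35 ± 0.11 (SE), with a limma adjusted p of 0.369. Over all alternatives it ran from 0.16 to 0.43 and the adjusted p from 0.254 to 0.82. PSMA5 of the alpha ring ran from 16739 to 21339 in severe and from 13593 to 15970 in mild WS, without overlap, at 0.33 ± 0.12 (limma adjusted p = 0.437). This gene was picked for its small p, and the share of all probes without overlap is not given. PSMB7, the trypsin-like beta subunit, was nearly level between these grades, with a log2FC of 0.017 ± 0.090, a sign that turned without the slide term (-0.056). It measured 24451, 25765, 27353 and 27258 in severe WS and 23031, 27176 and 31546 as lowest, median and highest in mild WS.

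Among the regulatory members of C3, PSMD4, a ubiquitin receptor of the base, measured 4530, 4031, 2927 and 3363 in severe WS, and 2225, 3166 and 3700 as lowest, median and highest in mild WS. The groups overlapped, and its log2FC was 0.33 ± 0.16 (limma adjusted p = 0.541). PSMD14, the deubiquitinase of the lid, lay between 1025 and 1328 in severe and 926 and 1656 in mild WS, and its mean of 1186 in severe was below the 1228 in mild WS. Its log2FC of 0.23 ± 0.12 was positive only with slide accounted for, and without the slide term it was -0.029. Neither activator passed the test. PSME3, which forms the ring activator of the nucleus, had -0.063 ± 0.11, which turned to 0.014 without the slide term. PSME4 had -0.28 ± 0.25, with 7577, 2878, 4294 and 5310 in severe WS against 4147, 5265 and 6412 in mild WS. This value ran from -0.52 without severe replicate 1 to -0.017 without severe replicate 2.

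The members with the smallest p in C1 and C2 also overlapped between grades. In C1, PSMA5 had a log2FC of 0.25 ± 0.10, PSMD10 (gankyrin, an assembly chaperone) 0.22 and the ATPase PSMC2 -0.33, with limma adjusted p values of 0.548, 0.548 and 0.578. PSMD10 measured 2028, 2623 and 2866 as lowest, median and highest in mild and 2738, 2958 and 3027 in moderate WS, and PSMC2 19833, 31865 and 34858 against 17301, 21584 and 35464. The ranges of both genes overlapped. In C2, PSMD7 of the lid scaffold had 0.30 ± 0.13, PSMA7 of the alpha ring 0.24 ± 0.13 and PSMD4 0.25 ± 0.16, with limma adjusted p values of 0.587, 0.691 and 0.738. PSMD7 ran from 10193 to 15404 in severe WS and from 7737 to 11160 in moderate WS, so that 3 of its 4 severe arrays, at 15404, 15051 and 11738, lay above every moderate array. It was picked for its small p, and the share of all probes that separate in this way is not given. Grade, row and brightness cannot be told apart in C2.

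**Figure D2:**
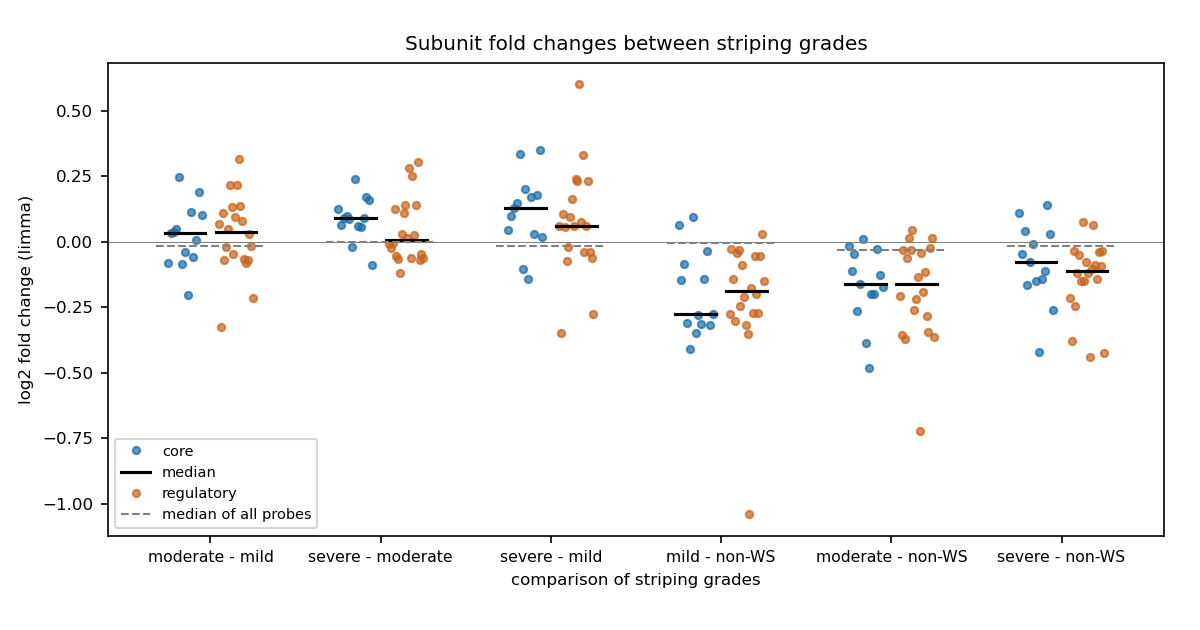
Log2FC of each subunit gene (points, core and regulatory apart) in the 6 comparisons of striping grades, with the median of each class and the median over all probes as a dashed line. In the comparisons of mild and moderate with non-WS most points lie below 0, with PSMD2 lowest at -1.04 and -0.72.

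Against the arrays titled non-WS, subunit transcripts were mostly lower, though none passed the test. In mild WS 30 of 33 genes were below the non-WS level, with a median log2FC of -0.20 against -0.0055 over all probes, and the medians were -0.28 for the core and -0.19 for the regulatory genes. The core median was -0.13 without the slide term and -0.18 without either non-WS replicate 4 or mild replicate 4. No gene was called by limma, with 0% of probes called, but 11 of 33 were lower at an unadjusted p at or below 0.05, where 8.66% of probes were lower. In moderate WS 29 of 33 were lower with a median of -0.16, 0 were called against 0% of probes, and 8 were lower at the unadjusted level against 8.39% of probes. In severe WS 27 of 33 were lower with a median of -0.10, 0 were called against 0% of probes, and 1 had an unadjusted p at or below 0.05 against 5.39% of probes. The methods' t-test called 0 members in each after adjustment, and gave 8, 7 and 1 members lower at the unadjusted level. Since the 3 comparisons share the 4 non-WS arrays, they are not separate pieces of evidence. The mild and moderate arrays lay on the other row from non-WS and were mostly brighter, so grade, row and brightness cannot be told apart there. Only the severe arrays shared the row of the non-WS arrays.

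Other measurements moved in the same comparison. From non-WS to mild WS, 5 of 5 erythrocyte markers were lower, with a median log2FC of -0.99, and their summed signal ran from 53379 to 71952 in non-WS and from 20121 to 43745 in mild WS. The 5 adipocyte markers were all above 0 with a median of 0.58, and the 6 fibroblast and matrix markers with 0.37. Of the regenerating fibre and satellite cell markers 4 of 5 were below 0 with a median of -0.61, and their summed signal overlapped, from 16735 to 34368 in non-WS and from 14548 to 30739 in mild WS. None of these markers was called or at background, and their part in the subunit differences was not tested. In whole muscle, fewer cells of a type and less RNA per cell cannot be told apart.

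Among the members PSMD2 differed most from non-WS. Its signal was 7138, 8042, 6621 and 6769 in the 4 non-WS arrays, and its lowest, median and highest values were 1290, 3573 and 4483 in mild and 3045, 4148 and 4755 in moderate WS. The severe arrays measured 4997, 7239, 4067 and 5194. Every mild and moderate array lay below every non-WS array, and 1 of 4 severe arrays lay inside the non-WS range. How many of all probes separate in this way is not given. The mild and moderate arrays lay on the other row and were mostly brighter, so grade, row and brightness cannot be told apart in this separation. The log2FC was -1.04 ± 0.20 in mild, -0.72 ± 0.20 in moderate and -0.44 ± 0.21 in severe WS, with limma adjusted p values of 0.075, 0.129 and 0.917. From mild to severe WS it was 0.60 ± 0.20 (limma adjusted p = 0.392). The mild difference passed the test without mild replicate 3 (-1.13, adjusted p 0.0396), and the moderate one without mild replicate 6 (-0.81, adjusted p 0.046) or moderate replicate 6 (-0.81, adjusted p 0.0458). Over all alternatives the adjusted p of the mild difference ran from 0.0396 to 0.241 and that of the moderate one from 0.0458 to 0.41.

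**Figure D3:**
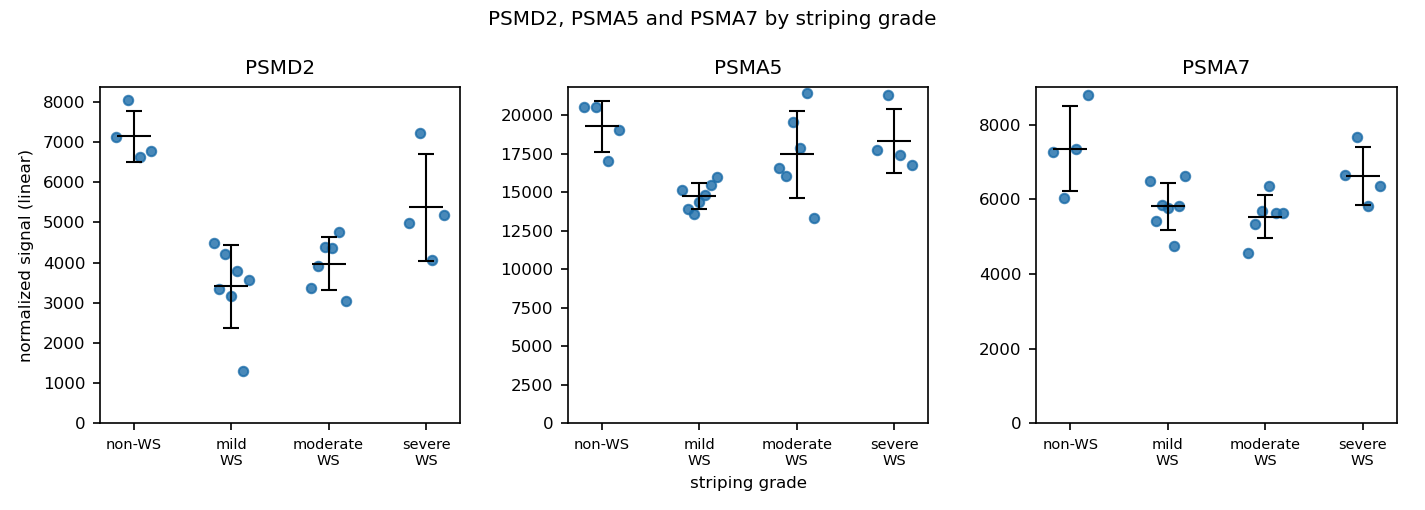
Normalized signal (linear scale) of PSMD2, PSMA5 and PSMA7 on each array of the 4 striping groups, with the group mean ± SD. The 4 non-WS arrays of PSMD2, at 6621 to 8042, lie above all mild and moderate arrays, and the 7 mild arrays of PSMA5 lie below all its non-WS and severe arrays. The non-WS and severe arrays lay on another row of the slides than the mild and moderate arrays.

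The alpha ring subunits PSMA5 and PSMA7 had the smallest p after PSMD2 in mild and in moderate WS. PSMB1, named here after its values were seen, had a larger but less certain log2FC of -0.48 ± 0.22 in moderate WS (limma adjusted p = 0.311). PSMA5 measured 20512, 20512, 16997 and 19056 in non-WS, and 13593, 14832 and 15970 as lowest, median and highest in mild WS. The mild arrays lay wholly below the non-WS arrays, with a log2FC of -0.41 ± 0.12 and a limma adjusted p of 0.166. PSMA5 was picked for its small p, and the share of all probes that separate is not given. PSMA7 measured 7277, 6027, 7335 and 8805 in non-WS, and 4563, 5643 and 6359 as lowest, median and highest in moderate WS. These ranges overlapped, with a log2FC of -0.39 ± 0.13 (limma adjusted p = 0.198).

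Lid and other members followed with smaller differences. PSMD13, a lid scaffold subunit, measured 10678, 10479, 11325 and 12483 in non-WS, and 8708, 9281 and 10410 as lowest, median and highest in mild WS. The groups did not overlap, though the log2FC was only -0.32 ± 0.096 with a limma adjusted p of 0.169, and the share of all probes without overlap is not given. PSMD7 in moderate WS had -0.34 ± 0.13 (0.232), from 15018, 12543, 10862 and 15109 in non-WS to 7737, 10185 and 11160. In severe WS, PSMB7 had -0.26 ± 0.094 and PSMC2 -0.38, with limma adjusted p values of 0.898 and 0.917. PSMB7 overlapped between non-WS (30024, 26814, 32885 and 36305) and severe WS (24451, 25765, 27353 and 27258).

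The wooden breast set asked how severe WB differs from non-WB muscle. Averaged over the 3 comparisons, 1 subunit gene rose and 1 fell, in a muscle where many other transcripts differed. PSMD3, a structural subunit of the lid, rose 1.28-fold (log2FC 0.36 ± 0.085, limma adjusted p = 0.0138), and PSME4 fell by 0.80 ± 0.19 on the log2 scale (limma adjusted p = 0.0135). These 2 of 33 genes compare with 24.0% of all probes called. The 1 that rose compares with 11.3% of probes called higher, and the 1 that fell with 12.7% called lower. Of all calls 47.1% were higher, and 87.0% with the authors' series matrix values. Those values are not normalized on these arrays and raise the median of all probes by 0.32. A 1.2-fold change was reached by 4 of 33 members (12.1%) and 48.6% of probes, and the median size of the log2FC was 0.13 against 0.25. The log2FC was above 0 in 24 of 33 members, with a median of 0.10 against -0.027 over all probes, but in 9 of 33 with 75th percentile scaling.

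**Figure D4:**
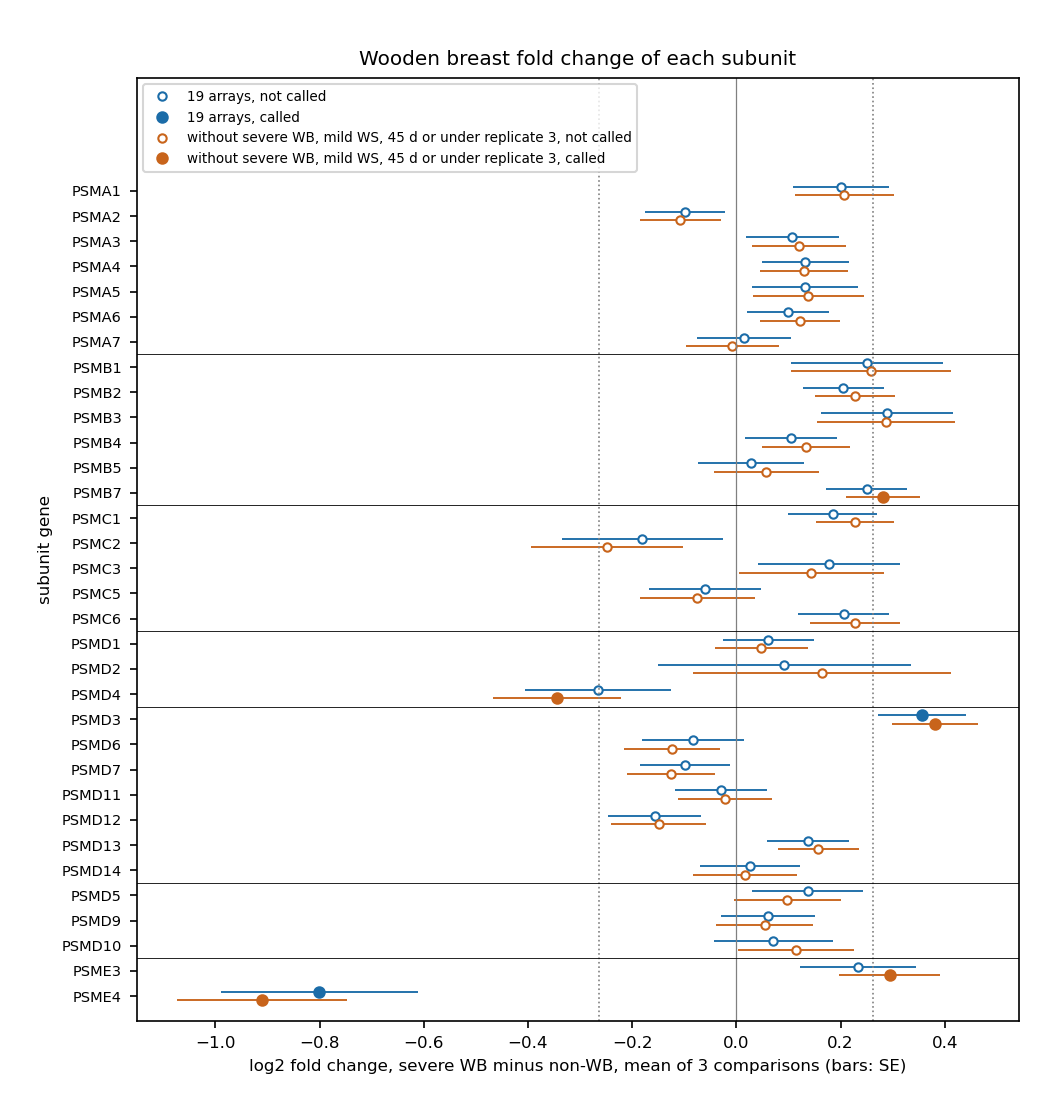
Log2FC of each subunit gene between severe WB and non-WB, mean of 3 comparisons, with SE bars, from all 19 arrays (blue) and without replicate 3 of severe WB with mild WS at 45 d or under (orange). Filled points were called, and dotted lines mark the 1.2-fold change. PSME4 lies far to the left and PSMD3 to the right in both, and the core genes sit mostly just right of 0, a side that depends on the scaling (median 0.13 after quantile normalization and -0.053 after 75th percentile scaling).

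PSME4 was low on most WB arrays. Its signal in non-WB muscle was 6698, 9256 and 6503 with mild WS at 49 d, 5508, 5193, 4516 and 8873 with moderate WS, and 7568, 7463, 8588 and 7406 at 45 d or under. In severe WB it was 2547 and 2144 with mild WS at 49 d, 2896, 4433 and 7249 with moderate WS, and 4514, 3799 and 8414 at 45 d or under. Of 8 WB arrays, 6 lay below every non-WB array, the one at 4514 only just (lowest non-WB 4516). The highest WB value came from the array that stood apart in its markers. By comparison, the log2FC was -1.66 with mild WS at 49 d, -0.16 with moderate WS and -0.58 at 45 d or under. With slide in the fit, each sets the WB arrays against the 3 non-WB arrays of their own slide. Replicate 4 of non-WB with moderate WS (8873) and of non-WB at 45 d or under (7406), on another slide, did not enter. Against all non-WB arrays of the group, the mean differences were -0.36 with moderate WS and -0.56 at 45 d or under. The log2FC with mild WS at 49 d, which was the largest and rests on 2 WB arrays, weighs most in the mean. The second PSME4 probe, dimmer, had log2FC values of -1.65 in the 49 d comparison with mild WS and -0.93 in the mean of the 3 (limma adjusted p of 0.0512 and 0.0281). Its sign matched the first probe's in all comparisons.

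PSMD3 was the reverse. In non-WB muscle it measured 13119, 13411 and 13384 with mild WS at 49 d, 12592, 13258, 11543 and 12200 with moderate WS, and 13971, 15389, 15866 and 13108 at 45 d or under. In severe WB it measured 22137 and 15937, then 16991, 16802 and 16087, then 17298, 17942 and 15140 in the same order. Of 8 WB arrays, 7 lay above every non-WB array, the exception again being the array that stood apart. Its call depended on the scaling, since with 75th percentile scaling the log2FC was 0.18 (adjusted p 0.156). With the row on the slide as a covariate neither gene was called, at 0.38 (adjusted p 0.0538) for PSMD3 and -0.87 (0.0518) for PSME4. The methods' t-test, which here pooled all 8 WB against all 11 non-WB arrays, gave PSME4 -0.76 (adjusted p 0.0805). That test mixed ages and grades of striping and is not the mean of the 3 comparisons. Over all alternatives the adjusted p ran from 0.00325 to 0.156 for PSMD3 and from 0.00101 to 0.0805 for PSME4.

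**Figure D5:**
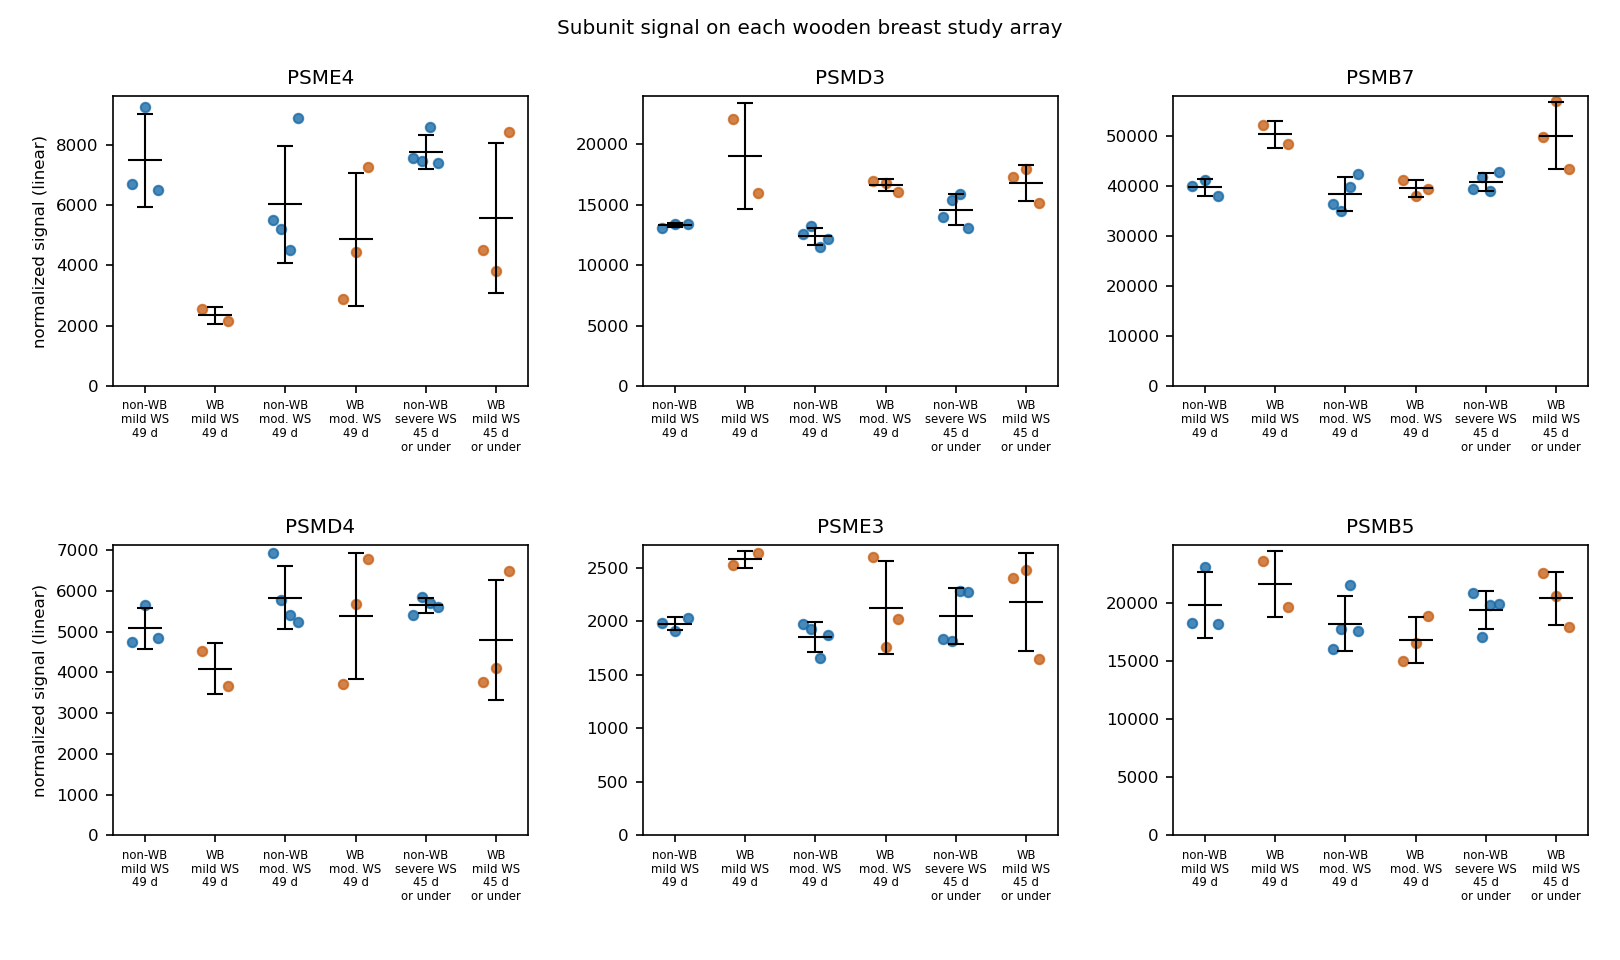
Normalized signal (linear scale, from 0) of PSME4, PSMD3, PSMB7, PSMD4, PSME3 and PSMB5 on each of the 19 wooden breast arrays by group, with the group mean ± SD. For PSME4, 6 of 8 WB arrays lie below all non-WB arrays, and for PSMD3, 7 of 8 lie above them.

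Within the core, the catalytic subunits PSMB7 and PSMB5 were measured, and the difference between their changes was not tested. PSMB7 measured 40046, 41282 and 37918, then 36319, 35056, 39721 and 42435, then 39481, 41792, 39085 and 42736 in the non-WB groups, in the order above. In severe WB it measured 52280 and 48509, then 41202, 37918 and 39481, then 49869, 56944 and 43481. The 5 WB arrays with mild WS lay above every non-WB array and the 3 with moderate WS did not. Its log2FC of 0.25 ± 0.078 had a limma adjusted p of 0.0336 but missed the 1.2-fold criterion, and after 75th percentile scaling it was -0.029.

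PSMB5 measured 18240, 23058 and 18127, then 16016, 17705, 21515 and 17531, then 20850, 17011, 19777 and 19890 in the non-WB groups. In severe WB it measured 23622 and 19615, then 14942, 16567 and 18861, then 22546, 20614 and 17942. The groups overlapped throughout, and the log2FC was 0.028 ± 0.10 (limma adjusted p = 0.86), with the sign turned after 75th percentile scaling (-0.14). Over the beta ring, 6 of 6 genes were above 0 with a median log2FC of 0.23, and 6 of 7 alpha genes with a median of 0.11. The core median of 0.13 became -0.053 with 75th percentile scaling, so its direction depends on the scaling.

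Without the array that stood apart, 5 of 33 members were called in the mean of the 3 comparisons, against 38.7% of all probes. PSMB7 (0.28 ± 0.071, limma adjusted p = 0.00757), PSMD3 (0.38 ± 0.083, 0.00325) and PSME3 (0.29 ± 0.10, 0.0275) were then higher. PSME4 (-0.91 ± 0.16, 0.00101) and PSMD4 (-0.34 ± 0.12, 0.0394) were lower. With all 19 arrays PSME3 had 0.23 ± 0.11 (0.133) and PSMD4 had -0.27 ± 0.14 (0.171).

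For PSMD4 the non-WB arrays ran from 4744 to 6934, and the WB arrays measured 4533 and 3657, then 3709, 5681 and 6776, then 3775, 4115 and 6495. Of these 8, 5 lay below every non-WB array and 3 lay inside their range. PSME3 ran from 1652 to 2282 in non-WB, and measured 2524 and 2636, then 2601, 1758 and 2021, then 2408, 2477 and 1650 in WB. Here 5 of 8 lay above every non-WB array and 1, the array that stood apart, lay just below them. PSMD14 did not separate the groups, with a log2FC of 0.026 ± 0.097 whose sign turned to -0.045 with 75th percentile scaling.

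In the 49 d comparison with mild WS, PSME4 was the 1 member called, falling by 1.66 ± 0.35 on the log2 scale (limma adjusted p = 0.019), where 11.6% of probes were called. PSMD3 had 0.50 ± 0.16 (0.0547), and it ran from 0.26 without WB replicate 1 to 0.73 without WB replicate 2. PSMB7 had 0.34 ± 0.14 (0.116) and turned to -0.23 with 75th percentile scaling, where PSMD3 had 0.13. Over all alternatives the adjusted p of PSMD3 ran from 0.0186 to 0.598. PSMD3 was called beside PSME4 without the array that stood apart (0.50, adjusted p 0.0289), against 24.2% of probes. This comparison rests on 2 WB arrays, whose median signals of 273 and 298 exceeded those of all other wooden breast arrays (122 to 238), and brightness cannot be told apart from WB here. PSME4 was not called without non-WB mild WS replicate 2 (-1.50, adjusted p 0.065) or without either WB array (-1.79 and -1.54, adjusted p 0.0929 and 0.143), and its adjusted p over all alternatives ran from 0.00257 to 0.149.

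With moderate WS at 49 d, limma called 0 members and 0% of probes, and 4 members were higher at an unadjusted p at or below 0.05 against 12.0% of probes in either direction, with 4 by the methods' t-test. Of 33 genes 28 were above 0, with a median log2FC of 0.18, against 48.0% of all probes above 0 and a median of -0.016. With slide in the fit, replicate 4 of the non-WB group, on another slide, did not enter these values. Relative to the set, the members' mean log2 level was -0.20, -0.13 and -0.14 on non-WB replicates 1 to 3 and 0.027 on replicate 4. On the WB arrays it was -0.035, 0.016 and 0.00034. PSMD3 (0.42 ± 0.14), the ATPase PSMC6 (0.41 ± 0.15) and the beta subunit PSMB2 (0.33 ± 0.13) had the smallest p, with limma adjusted p values of 0.376, 0.377 and 0.379. PSMC6 measured 8633, 7311 and 7839 in WB and 5277, 6405, 6263 and 7868 in non-WB. PSMB2 measured 15206, 15758 and 14073 against 11840, 11622, 12465 and 14012. Its groups did not overlap, but it was picked for its small p and the share of all probes without overlap is not given.

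At 45 d or under, limma called 0 members and 0% of probes, with 2 members at the unadjusted level against 11.0% of probes, and 3 by the methods' t-test. PSMB7 (0.31 ± 0.13) was higher, and PSMD12 of the lid (-0.32) and PSMA2 of the alpha ring (-0.25) were lower, with limma adjusted p values of 0.432, 0.45 and 0.476. Replicate 4 of the non-WB group, on another slide, did not enter these log2FC values. PSMD12 measured 6010, 5837 and 5659 in WB and 7231, 7008, 7676 and 6086 in non-WB, and PSMA2 2143, 2265 and 2328 against 2805, 2630, 2558 and 2364. In both genes, which were picked for their small p, every WB array lay below every non-WB array. The share of all probes that separate in this way is not given here. Without the array that stood apart 0 members were called against 13.1% of probes, with 4 at the unadjusted level. PSMB7 was then at 0.41 (limma adjusted p 0.0513), PSMD12 at -0.30 and PSMA2 at -0.27. PSME4 had -0.58 with all arrays and -0.92 without that array (limma adjusted p 0.0548).

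The WB effect at 45 d or under was tested against that at 49 d, and no member differed by limma, with 0 called, 0% of probes called, and 0 members at the unadjusted level against 4.24% of probes. At 45 d or under the WB birds had mild and the non-WB birds severe WS, while at 49 d the grades matched. Age and grade of striping therefore cannot be told apart in this contrast. The members with the smallest p were the beta subunit PSMB1 (-0.53 ± 0.30), PSMD3 (-0.30 ± 0.18) and PSMA2 (-0.22), all with adjusted p values of 0.975. Without the array that stood apart 0 members and 0% of probes were called, and these 3 had -0.50, -0.23 and -0.25. Severe WB with mild WS was also compared between ages, where limma called 0 members and 0.00290% of probes (1 probe), and 1 member had an unadjusted p at or below 0.05 against 9.88% of probes. The t-test was not run for these 2 contrasts. That member was the ATPase PSMC3 (-1.02 ± 0.41, limma adjusted p = 0.461). It measured 1822, 2482 and 2605 at 45 d or under and 3743 and 2919 at 49 d. PSME4 had 1.08 ± 0.57 (0.544) and PSMA7 -0.41 ± 0.27 (0.61), a sign that turned without the slide term (0.018). Without the array that stood apart 0 members were called against 0.00287% of probes, and PSMC3, PSME4 and PSMA7 had -1.12, 0.74 and -0.48. The WB groups of the 2 ages lay on different slides, which 1 array, replicate 4 of the non-WB birds at 45 d or under, connected. Without it slide and age cannot be told apart, and the 3 genes had -0.68, 1.97 and 0.28.

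Of 31 other genes of the pathway, 28 were tested, and in the mean of the 3 WB comparisons 1 rose and 3 fell, with a median log2FC of 0.015. These 4 of 28 compare with the 24.0% of all probes called. PAAF1, which binds the ATPases during assembly of the base, rose by 0.51 ± 0.10 (limma adjusted p = 0.00878). SHFM1, the small lid protein also named SEM1, fell by 0.67 ± 0.16 (0.0137), and NGLY1, a deglycosylating enzyme that processes the factor driving subunit transcription, fell by 0.60 ± 0.12 (0.00924). PSMG1, an assembly chaperone of the alpha ring, fell by 0.46 ± 0.12 (0.0199). None of the 4 was called by the methods' t-test, pooled over all WB and non-WB arrays. Over all alternatives their adjusted p reached 0.0581, 0.0905, 0.103 and 0.6 in that order. Without the array that stood apart all 4 were called, at 0.57, -0.78, -0.69 and -0.53, and so was the delivery factor ZFAND5 (-0.49, adjusted p 0.0324), against 38.7% of probes. From non-WS to mild WS 0 of the 28 were called by limma, 2 were lower at an unadjusted p at or below 0.05 against 8.66% of probes, and the median log2FC was -0.10.

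The WB arrays also carried more transcripts of some other cell types. Of 8 macrophage markers tested 7 were called higher with a median log2FC of 1.14, and of 6 fibroblast and matrix markers 5 were called higher with 1.05. Among regenerating fibre and satellite cell markers 3 of 5 were called higher with a median of 0.83, while 0 of 4 endothelial markers (median -0.34) and 0 of 2 fast fibre markers (median -0.041) were called. For adipocyte markers 1 of 5 was called higher (median 0.16), and for erythrocyte markers 0 of 5 were called (median 0.63). Leaving out the array that stood apart, 7 of 8 macrophage, 6 of 6 fibroblast and matrix and 3 of 5 regenerating markers were called higher, with medians of 1.34, 1.18 and 1.00. That array was set apart for its low macrophage and matrix sums, so higher medians of those lists without it follow from the choice. All tested markers were above background on every array, and their part in the subunit differences was not tested. The smallest p of a row effect among the members was 0.0661, for PSMC3, in the limma fit with the row as a term (adjusted p 0.975). Since every WB array lay on the same row, that term is estimated from the non-WB arrays. It cannot show how far row enters the WB differences.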

How the data were processed

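Total RNA of pectoralis major was labelled with Cy3 and hybridized to one-colour Agilent arrays, which the authors scanned and read with Agilent Feature Extraction. The deposited intensity values are its background-subtracted, processed spot signals, and the authors' series matrix holds normalized intensity for the striping arrays but equals the processed signal on the wooden breast arrays. Spots of a probe were averaged, and each set (21 striping and 19 wooden breast arrays) was quantile normalized on its own and log2 transformed. Probes with a signal of at least 20, well above background and not marked as an outlier on every array of a set were tested. Limma 3.58.1 in R 4.3.3 was fitted per set over all groups with slide as a factor, and p-values were adjusted by Benjamini-Hochberg over all probes. Calls used an FDR of 0.05 and a fold change of 1.2, as the methods do, with limma replacing their t-test and slide standing in for their unnamed batch term. ComBat was not run.

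Probes were named through RefSeq records (46.0% matched), and no coordinates or sequences are given because the array was designed on another genome build. The gene group and the lists were chosen with earlier results of these data known, and within the group the members followed from their symbols alone. Array values or group ranges were given for members called and for most of the 3 with the smallest p in each comparison. The same holds for most of the catalytic, receptor, deubiquitinase and activator genes in C3 and in the WB mean. Members whose groups did not overlap were among those picked by p, and the share of all probes without overlap is not given. PAAF1, SHFM1, NGLY1 and PSMG1 were named because they were called, after their values were seen. Alternatives were 75th percentile scaling, normexp (offset 50, on median signals because mean signals were not used here), the series matrix values, normalization over all 40 arrays, other filters, slide and row terms, a replicate block, the methods' t-test, other thresholds, and each array left out. The test was also run on simulated data with independent errors and no row or brightness effects, so that run does not bear on those effects. No array pair correlated above 0.984, and none was taken for a duplicate.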

Additional observations from a re-analysis of the deposited data

Results flagged for a closer look

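In groups of 4 to 10 arrays, each named subunit gene was examined for 1 array far from the rest of its group (Dixon's test at the 95% level). Of 120 tests over 20 genes and 6 groups, 6 (5%) passed, and chance alone marks about 1 in 20 groups. Within mild WS, PSMD2 was low in replicate 6, at 1290 against 3168 to 4483 in the others. PSMC2 was low in replicate 2 (19833 against 28795 to 34858). PSMD4 was low in replicate 4 (2225 against 3038 to 3700), and PSMD13 was high in replicate 7 (10409.5 against 8708 to 9328). PSME4 was low in replicate 5 of moderate WS, at 2160.5 against 4864 to 6708. In non-WB muscle with severe WS at 45 d or under, PSME4 was high in replicate 3, at 8588 against 7406 to 7568. The 6 values came from 6 different arrays, and what sets them apart was not tested.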

How the results depend on the processing

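With 75th percentile scaling the core and regulatory median log2FC were -0.24 and -0.26 at 49 d with mild WS, -0.053 and -0.052 in the WB mean, 0.083 and 0.011 for 45 d minus 49 d, and 0.24 and 0.23 for severe WB between ages. They were -0.37 and -0.28 from non-WS to mild WS, and the core medians -0.29 from non-WS to moderate and 0.21 from mild to severe WS. PSMB7 turned to -0.23 at 49 d with mild WS, and PSMB7, PSMB5 and PSMD14 to -0.029, -0.14 and -0.045 in the WB mean, where 1 member was called (23.5% of probes). The series matrix values gave 0.51 and 0.49 at 49 d with mild WS (6 called, 40.7% of probes), 0.35 and 0.29 with moderate WS, 0.28 and 0.28 in the mean (7 called, 28.5%), -0.33 and -0.41 for 45 d minus 49 d, and -0.40 and -0.41 between ages. They lack normalization on these arrays and shift the median of all probes by 0.74 at 49 d with mild WS.

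The 49 d comparison with mild WS called 2 members with normexp (11.5% of probes), without a slide term (13.8%) or with slide as a random block (13.6%), 5 at an FDR of 0.2 (41.2%) and 0 by the methods' t-test (0%). In the WB mean an FDR of 0.2 called 4 members (42.4%) and the row covariate 0 (6.78%, with a core median of 0.13 at 45 d or under). The t-test pooled over all WB and non-WB arrays, which stands beside that mean, called 1 (1.92%). An FDR of 0.2 called 5 and 2 members in mild and moderate WS against non-WS (4.39 and 5.15%). Without a slide term and by the t-test the core median from non-WS to mild WS was -0.13, and PSMB7, PSMD14 and PSME3 turned to -0.056, -0.029 and 0.014 from mild to severe WS. PSMD14 in the WB mean turned to -0.00475 without a slide term and -0.00635 with a random block, and it was -0.00562 by the pooled t-test. PSMA7 between ages turned to 0.018 and 0.028 without a slide term and with a random block, which gave PSMB7 -0.025 from mild to severe WS and the regulatory genes 0.071 at 49 d with moderate WS. The cause of these changes was not tested.

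Leaving out each array in turn gave 0 to 1 members called from non-WS to mild and to moderate WS (up to 0.282 and 0.478% of probes), 0 to 2 at 49 d with mild WS (0.0579 to 24.2%) and 2 to 5 in the WB mean (10.5 to 38.7%). Core medians ran from -0.29 to -0.18 from non-WS to mild WS, -0.0044 to 0.26 and 0.13 to 0.28 at 49 d with mild and moderate WS, and -0.20 to 0.14 for WB between ages. Regulatory medians ran from -0.13 to 0.096 at 49 d with mild WS, -0.017 to 0.066 at 45 d or under and -0.083 to 0.22 between ages. PSMB7 (-0.012 to 0.049) and PSME3 (-0.12 to 0.0047) from mild to severe WS, PSMB5 (-0.017 to 0.073) and PSMD14 (-0.044 to 0.096) in the WB mean, and PSMA7 between ages (-0.53 to 0.28) changed sign. Between ages the upper ends (0.14, 0.22 and 0.28) came from leaving out replicate 4 of non-WB at 45 d or under. Without that array slide and age cannot be told apart. Without severe WB mild WS 49 d replicate 2 PSMG1 was not called (-0.40, adjusted p 0.0705), and without non-WB moderate WS replicate 3 PSMB7 was (0.27, 0.0403).

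Replicate numbers did not pair the arrays, since same-numbered deviations correlated between -0.23 and 0.33 and in no comparison all above 0.1. In the striping set each number lay on 1 slide, so that the replicate number as a block gave the same log2FC as the slide term and called 0 members. With that block in place of slide 2486 probes were called at 49 d with mild WS and 7272 in the WB mean, with the same members, PSME4 in the first and PSMD3 and PSME4 in the second. Normalization over all 40 arrays, the other filters and the mean of all probes changed no call of a member. Fitting groups alone gives no value for the WB mean.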
